A study of Mus musculus with 4 samples.

Results

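Eph receptors and ephrins are membrane proteins through which neighbouring cells repel or hold each other, and in the intestinal crypt they keep Paneth cells at the base. Of 10 listed genes, the receptors Ephb2, Ephb3, Ephb4, Ephb6, Epha1, Epha2 and Epha4 and the ligands Efnb1, Efnb2 and Efna1, 9 had at least 1 probe set whose annotated symbol was that gene alone. They were 9 of the 18193 genes named on the array and were represented by 21 of its 45037 probe sets. No probe set carried the symbol Ephb2 in the annotation used, so Ephb2 was not analysed here. RNA of Paneth cells cut from mouse tissue by laser capture was measured on 4 arrays, of which 2 are of the Atg16 hypomorph and 2 of the wildtype. Both groups have a mixed C57BL/6 and 129ola strain background. A hypomorph is a mutant in which a gene still works but less well, here Atg16l1, which is needed to form autophagosomes. The labels give no age, treatment or number of animals and do not say how the allele was made.

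An Eph receptor is a tyrosine kinase that is switched on by an ephrin on the surface of a touching cell, and the ephrin can signal back into its own cell. Receptors of the A class mostly bind ephrin-A ligands, which are lipid-anchored, and receptors of the B class mostly bind ephrin-B ligands, which span the membrane. In the mouse small intestine, Ephb2 and Ephb3 are switched on by Wnt signalling through beta-catenin and TCF in cells near the crypt base, whereas ephrin-B1 and ephrin-B2 are made by the cells above them. Paneth cells of mice without Ephb3 no longer stay at the crypt base.

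The promoters of all 10 listed genes were found in RefSeq (build GRCm38.p6), with 11 windows in all, and the 250 bases before the annotated start were searched for the core letters bound by TCF factors, CTTTGA and CTTTGT, on both strands. The pair cannot share a site. Of the 11 windows 1 held such letters, that of Epha2, and 27.6% of all 32851 RefSeq windows of the same length did. Those of Ephb3, the gene with the narrowest interval among those listed, and of Epha4, the gene with the largest difference among the brightest probe sets, held none. A match is only a description of the letters, and the absence of a match in these windows says nothing about TCF binding. The 3 upstream windows are printed 5′ to 3′ in the direction of the gene, with the matching letters in capitals.
Ephb3, GRCm38.p6 chr16:21204545-21204794, plus strand: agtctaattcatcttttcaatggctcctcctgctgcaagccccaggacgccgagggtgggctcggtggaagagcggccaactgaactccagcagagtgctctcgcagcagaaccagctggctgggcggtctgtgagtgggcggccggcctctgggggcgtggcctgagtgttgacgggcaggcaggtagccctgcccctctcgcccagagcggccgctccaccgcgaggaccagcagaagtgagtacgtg
Epha4, GRCm38.p6 chr1:77515089-77515338, minus strand: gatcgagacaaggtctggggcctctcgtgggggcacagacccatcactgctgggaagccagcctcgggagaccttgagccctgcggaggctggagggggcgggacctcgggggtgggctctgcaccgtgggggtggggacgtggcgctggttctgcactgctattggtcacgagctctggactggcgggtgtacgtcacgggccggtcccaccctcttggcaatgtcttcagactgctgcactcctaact
Epha2, GRCm38.p6 chr4:141300971-141301220, plus strand: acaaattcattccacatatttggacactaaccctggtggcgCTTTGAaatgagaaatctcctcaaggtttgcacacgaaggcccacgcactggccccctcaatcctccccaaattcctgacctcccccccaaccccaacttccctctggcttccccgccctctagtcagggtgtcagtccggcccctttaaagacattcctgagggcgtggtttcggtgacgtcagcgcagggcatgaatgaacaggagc

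Values are deposited linear intensities per probe set, whose median over an array was 47.2 and 49.5 in hypomorph and 48.4 and 47.7 in wildtype. Differences were taken as hypomorph minus wildtype after log2(intensity + 32), which understates changes of dim probe sets, and a fold is a ratio of intensity + 32. A probe set was tested if its mean log2 value reached the median of all, 6.32, equal to an intensity of about 47.7. As a guide to brightness without transcription, 44 probe sets of olfactory receptor genes had a median of 12.5 and a 95th percentile of 92.5. Atg16l1 read 966 and 995 in hypomorph and 1335 and 1183 in wildtype (log2 difference -0.35, limma adjusted p = 0.102). The Paneth cell products Lyz1 (14561 and 15097 in hypomorph, 15481 and 16021 in wildtype) and Mmp7 (8463 and 9486 in hypomorph, 9063 and 9314 in wildtype) were bright on every array, and 11 of 12 Paneth markers lay above that guide level, so the labelled cell type was present. Of 11 tested Paneth markers 2 were called higher in hypomorph and 0 lower. These were Mptx1 (log2 difference 0.83, limma adjusted p = 0.00151) and Reg3g (0.26, adjusted p = 0.0453). Markers of other cells moved with the groups too, most of all those of fat cells, of which 6 of 6 tested were called higher (summed intensity 22335 and 21247 in hypomorph, 8574 and 8435 in wildtype). Of 8 enteroendocrine markers 4 were called lower, Chgb, Gcg, Gip and Tac1 (summed intensity 9163 and 9604 in hypomorph, 12831 and 11989 in wildtype). The part of these cells in the values of the listed genes was not tested, and other marker lists are given beside the genes they touch. The labels do not tie arrays to animals, so the p-values rest on the spread between arrays, which may be technical. Xist, the RNA of the inactive X in female cells, read 4414 and 4510 in hypomorph and 18.0 and 25.6 in wildtype. Sex therefore cannot be told apart from genotype for any gene here.

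The series set hypomorph against wildtype to learn what Atg16l1 does in Paneth cells, and here the 2 groups are compared in their positional cues. Of the 12 probe sets that passed the brightness filter, which belong to 7 genes, limma called 0 higher and 0 lower at an adjusted p under 0.05, against 3.71% of all 22519 tested probe sets (2.04% higher and 1.67% lower). Before adjustment, 1 of the 12 had a p under 0.05, the brightest probe set of Epha4, against 20.5% of all tested. The median difference of the 12 was 0.063, and that of all tested probe sets was -0.031. The other 9 probe sets were below the filter and were fitted together with all probe sets, where 0 of the 9 were called, against 0.673% of all 45037, and 1, a dim one of Efnb1, had an unadjusted p under 0.05. In 11 of the 21 probe sets the hypomorph and wildtype values did not overlap, which was the case for 45% of all probe sets.

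**Figure D1:**
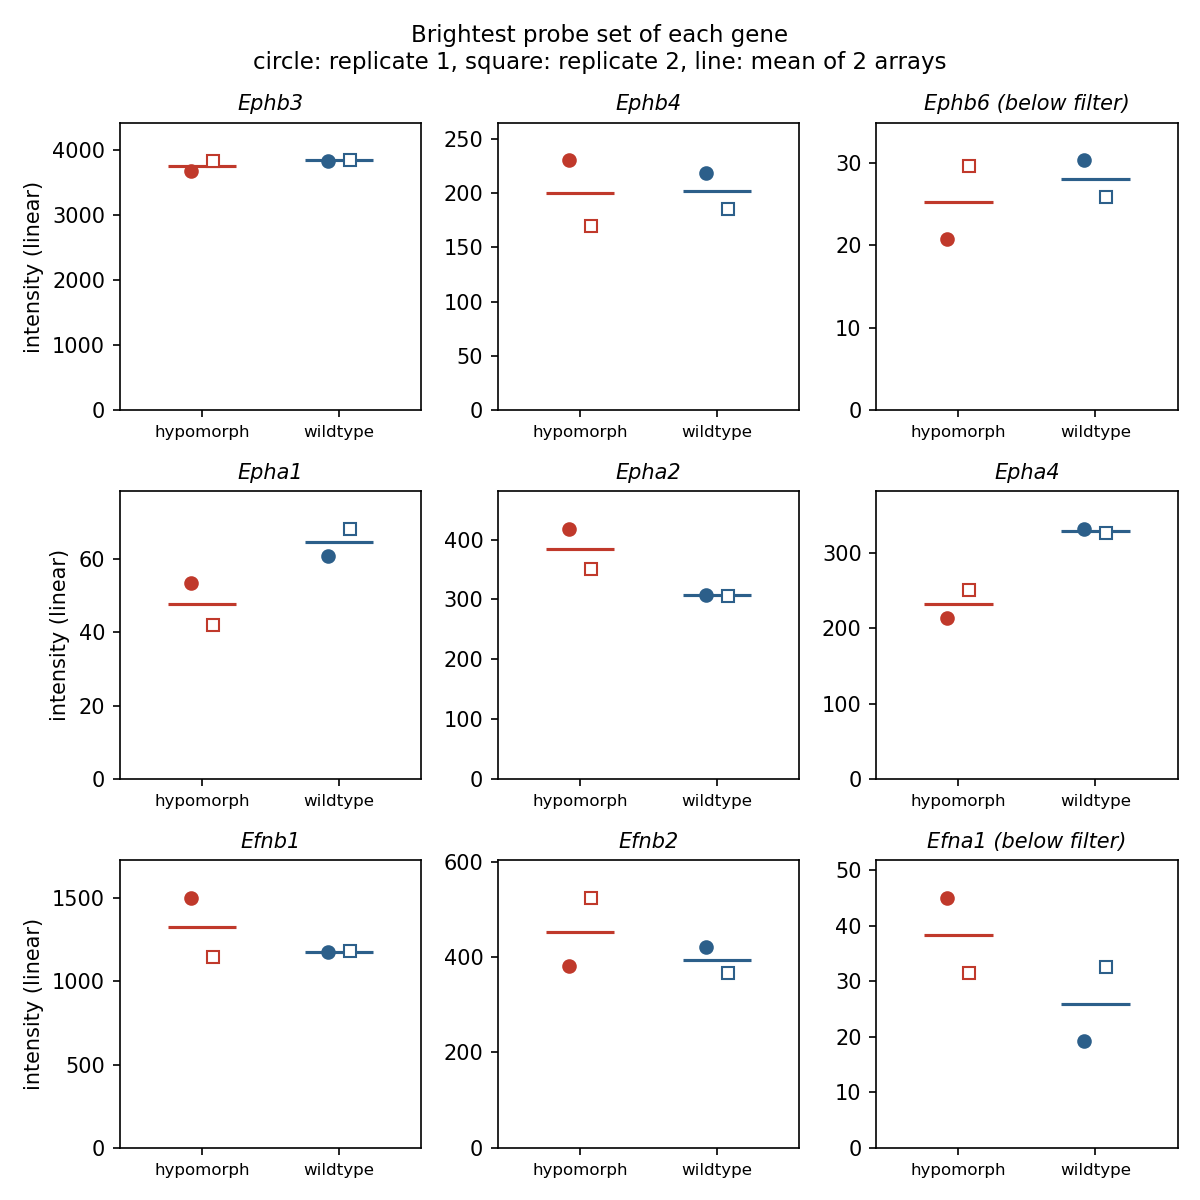
Linear intensity (y axis, from 0) of the brightest probe set of each of the 9 measured genes, hypomorph left and wildtype right, with replicate 1 as a filled circle, replicate 2 as an open square and the mean of 2 arrays as a line. Ephb3 lies between 3674 and 3841 on all 4 arrays, whereas Epha4 is at 214 and 250 in hypomorph and at 332 and 327 in wildtype.

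Among the EphB receptors, Ephb3, the receptor that holds Paneth cells in place, had nearly the same signal in both groups. Its probe set 1451550_at read 3674 and 3825 in hypomorph and 3831 and 3841 in wildtype, which placed it in the 96.8th percentile of all probe sets. Both hypomorph values lay below both wildtype values, but hypomorph replicate 2 differed from wildtype replicate 1 by very little. The mean was 3750 ± 107 in hypomorph and 3836 ± 7.53 in wildtype (SD, n = 2 each), with a log2 difference of -0.033 (SE 0.066, limma adjusted p = 0.826). The 95% interval of this difference ran from -0.18 to 0.12, a fold between 0.882 and 1.08, so a change in Ephb3 signal outside these bounds lies outside the interval. In 13 alternative settings, of which filters, variance models and the replicate block cannot move it, the difference stayed between -0.062 and -0.0040.

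Ephb4, a receptor best known from veins, was much less certain. Probe set 1449845_a_at read 230 and 170 in hypomorph and 218 and 185 in wildtype, and the groups overlapped fully. The log2 difference was -0.019 (SE 0.18, limma adjusted p = 0.968), with an interval from -0.42 to 0.38. Its sign turned with quantile normalisation (0.0019), without hypomorph replicate 2 (0.17) and without wildtype replicate 1 (0.084), so no direction can be given. Of 17 endothelial markers, 13 passed the filter and 0 were called (the median difference of all 17 was 0.087). Their summed intensity was 6398 and 6413 in hypomorph and 6057 and 5764 in wildtype, and 8 of the 17, Pecam1 and Cdh5 among them, lay below the olfactory receptor guide level. In laser-captured material fewer cells of a type and less RNA per cell cannot be told apart. Ephb6, a receptor without kinase activity, was dim at 20.8 and 29.6 in hypomorph and 30.3 and 25.8 in wildtype, below the guide level on every array. Its difference of -0.074 (SE 0.16) therefore gives no statement on its transcription.

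Among the EphA receptors, Epha4 had the largest difference and it was toward lower signal in hypomorph. Its brightest probe set, 1429021_at, read 214 and 250 in hypomorph and 332 and 327 in wildtype, so that the groups were well apart and the wildtype arrays nearly equal. The mean was 232 ± 25.7 in hypomorph and 329 ± 3.42 in wildtype (SD, n = 2 each). The log2 difference was -0.46 (SE 0.15, interval -0.79 to -0.13), a fold of 0.729. This missed the threshold (limma adjusted p = 0.123, unadjusted p = 0.0117), and leaving out each array in turn gave differences between -0.56 and -0.36.

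The other probe sets of Epha4 did not all go the same way. 1439757_s_at read 124 and 93.1 in hypomorph and 162 and 100 in wildtype, where the groups overlapped (difference -0.20, SE 0.21), and its sign turned without wildtype replicate 1 (0.082). 1421929_at read 53.6 and 48.1 in hypomorph and 87.6 and 54.6 in wildtype (difference -0.30, SE 0.19), but the difference was -0.064 without wildtype replicate 1 and -0.53 without wildtype replicate 2. 1421928_at ran the other way, at 65.3 and 74.9 in hypomorph and 55.2 and 59.0 in wildtype (difference 0.19, SE 0.17). These last 2 probe sets lie below the guide level, and the remaining one, 1456863_at, was at 2.75 and 6.48 in hypomorph and 8.57 and 12.4 in wildtype. Thus 4 of 5 probe sets had a lower mean in hypomorph and 0 of 5 were called. Epha4 lies on chromosome 1, as Atg16l1 does, with 76 protein-coding RefSeq genes between them. Whether that position plays a part in its difference was not tested.

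**Figure D2:**
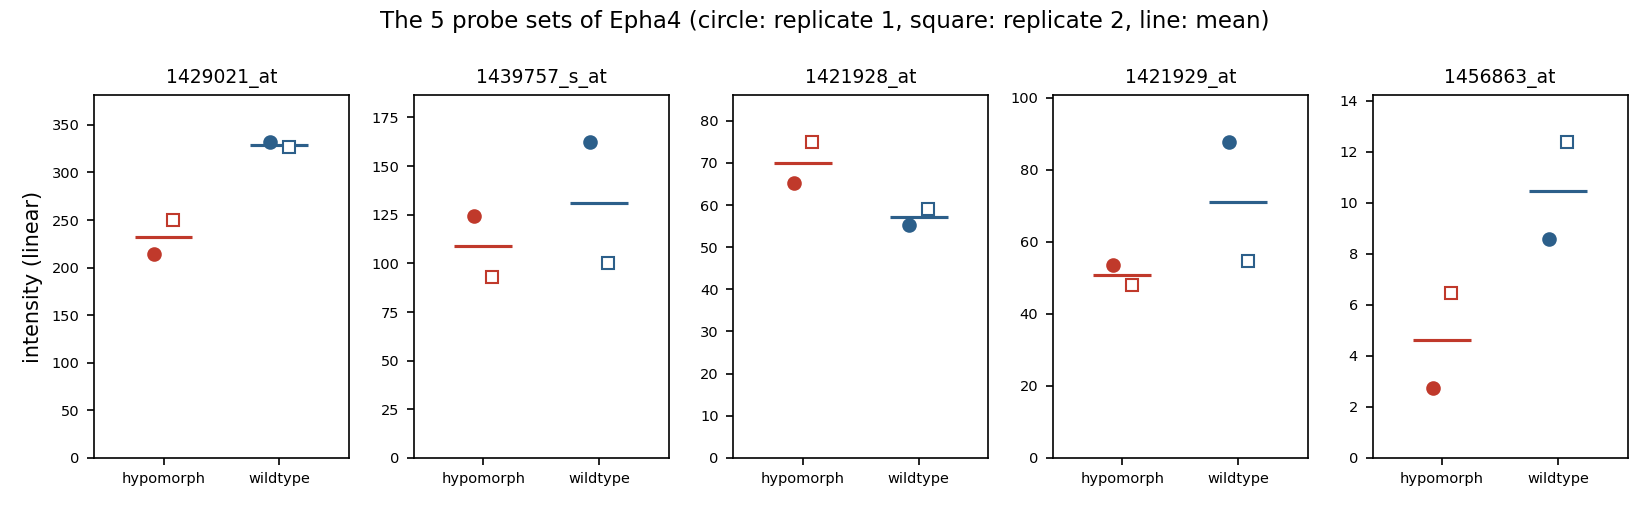
Linear intensity (y axes, from 0, scaled per panel) of the 5 probe sets of Epha4, hypomorph left and wildtype right, with replicate 1 as a circle, replicate 2 as a square and the mean as a line. The groups are furthest apart in 1429021_at, overlap in 1439757_s_at, and hypomorph is higher only in 1421928_at among these 5.

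Epha2, a receptor widely found on epithelia, was the only listed receptor with a positive difference at its brightest probe set. Probe set 1421151_a_at read 418 and 351 in hypomorph and 307 and 306 in wildtype. Both hypomorph values were above both wildtype values, and the hypomorph arrays were further from each other than hypomorph replicate 2 was from wildtype. The log2 difference was 0.29 (SE 0.14, interval -0.029 to 0.61, limma adjusted p = 0.285). It was positive in all 13 alternatives, at 0.18 to 0.41, and called in none. Among these, filters, variance models and the replicate block cannot change a difference. Epha1, an epithelial receptor whose gene lies on chromosome 6 with 18 protein-coding genes between it and Ephb6, was near the filter. Its brightest probe set, 1422917_at, read 53.4 and 42.1 in hypomorph and 60.7 and 68.1 in wildtype (difference -0.28, SE 0.17, limma adjusted p = 0.394), below the guide level. Its other probe sets, 1432400_at and 1432399_a_at, were below the filter with differences of -0.061 and -0.065. The signs of those turned without hypomorph replicate 1 (0.26) and without wildtype replicate 1 (0.049).

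The ephrin-B ligands had positive differences at their bright probe sets, but none was called. Efnb1, which encodes ephrin-B1, read 1501 and 1145 in hypomorph and 1173 and 1180 in wildtype at 1418285_at. Hypomorph replicate 1 stood above the other 3 arrays and hypomorph replicate 2 below both wildtype arrays. The log2 difference of 0.15 (SE 0.13, interval -0.13 to 0.44, limma adjusted p = 0.538) turned to -0.037 without hypomorph replicate 1. At 1418286_a_at Efnb1 read 1119 and 929 in hypomorph and 752 and 917 in wildtype, where the groups did not overlap (difference 0.29, SE 0.13, interval -0.013 to 0.58, adjusted p = 0.262). With replicate 1 of either group left out that difference came to 0.16 (hypomorph) and 0.15 (wildtype), and with replicate 2 of either left out to 0.42. The third probe set, 1451591_a_at, was dim and of opposite sign, at 11.1 and 3.83 in hypomorph and 19.4 and 20.9 in wildtype (difference -0.41, SE 0.13, limma adjusted p = 0.26 in the fit without the filter). With a pseudocount of 1 in place of 32 that difference was -1.47, also not called.

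Other measures differed between these groups, whereas Efnb1 was not called at any probe set. Enterocytes, the villus cells above the crypt, had 6 of 9 tested markers called higher and a summed intensity over 11 markers of 27016 and 27822 in hypomorph against 19782 and 20094 in wildtype. Efnb1 lies on the X chromosome, and Xist, the RNA of the inactive X in female cells, read 4414 and 4510 in hypomorph and 18.0 and 25.6 in wildtype. The part of either in the Efnb1 values was not tested, and sex and genotype go together on every array.

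Efnb2, which encodes ephrin-B2, read 382 and 524 in hypomorph and 422 and 366 in wildtype at 1419639_at. Hypomorph replicate 1 lay between the wildtype arrays and hypomorph replicate 2 above them. The log2 difference was 0.17 (SE 0.17, interval -0.20 to 0.54, limma adjusted p = 0.597) and turned to -0.041 without hypomorph replicate 2. At 1419638_at Efnb2 read 432 and 367 in hypomorph and 358 and 357 in wildtype, a difference of 0.14 (SE 0.14, adjusted p = 0.604) with the groups narrowly apart. It was 0.035 without hypomorph replicate 1 and 0.25 without hypomorph replicate 2. The dim probe sets 1449549_at and 1449548_at gave -0.15 and 0.18 at intensities of at most 24.2. Outside the epithelium Efnb2 marks arteries and the cells around vessels. The pericyte and smooth muscle markers summed to 8312 and 8757 in hypomorph and 9871 and 11272 in wildtype over 10 genes. Of the 9 tested, 1 was called, Rgs5, at 155 and 118 in hypomorph and 1140 and 1330 in wildtype. Differences of the other markers on this list ran from -0.22 (Tagln) to 0.17 (Des), and the median of all 10 was -0.073. The part of such cells in the Efnb2 values was not tested.

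Efna1, which encodes ephrin-A1, was the only ephrin-A gene listed, and its probe sets were below the filter. 1416895_at read 45.0 and 31.5 in hypomorph and 19.3 and 32.6 in wildtype, with overlapping groups and a difference of 0.28 (SE 0.19). 1448510_at read 15.6 and 7.39 in hypomorph and 4.86 and 9.43 in wildtype (difference 0.15, SE 0.13). Leaving out each array in turn gave 0.11 to 0.45 for the first and 0.012 to 0.29 for the second, and a pseudocount of 1 gave 0.57 and 0.60. Neither probe set exceeded the guide level on any array and neither was called in the fit without the filter (limma adjusted p = 0.556 and 0.662). In all, 9 probe sets of 6 genes had a mean above the guide level, those of Ephb3, Ephb4, Epha2, Epha4, Efnb1 and Efnb2, and the 3 genes Efna1, Epha1 and Ephb6 had none.

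**Figure D3:**
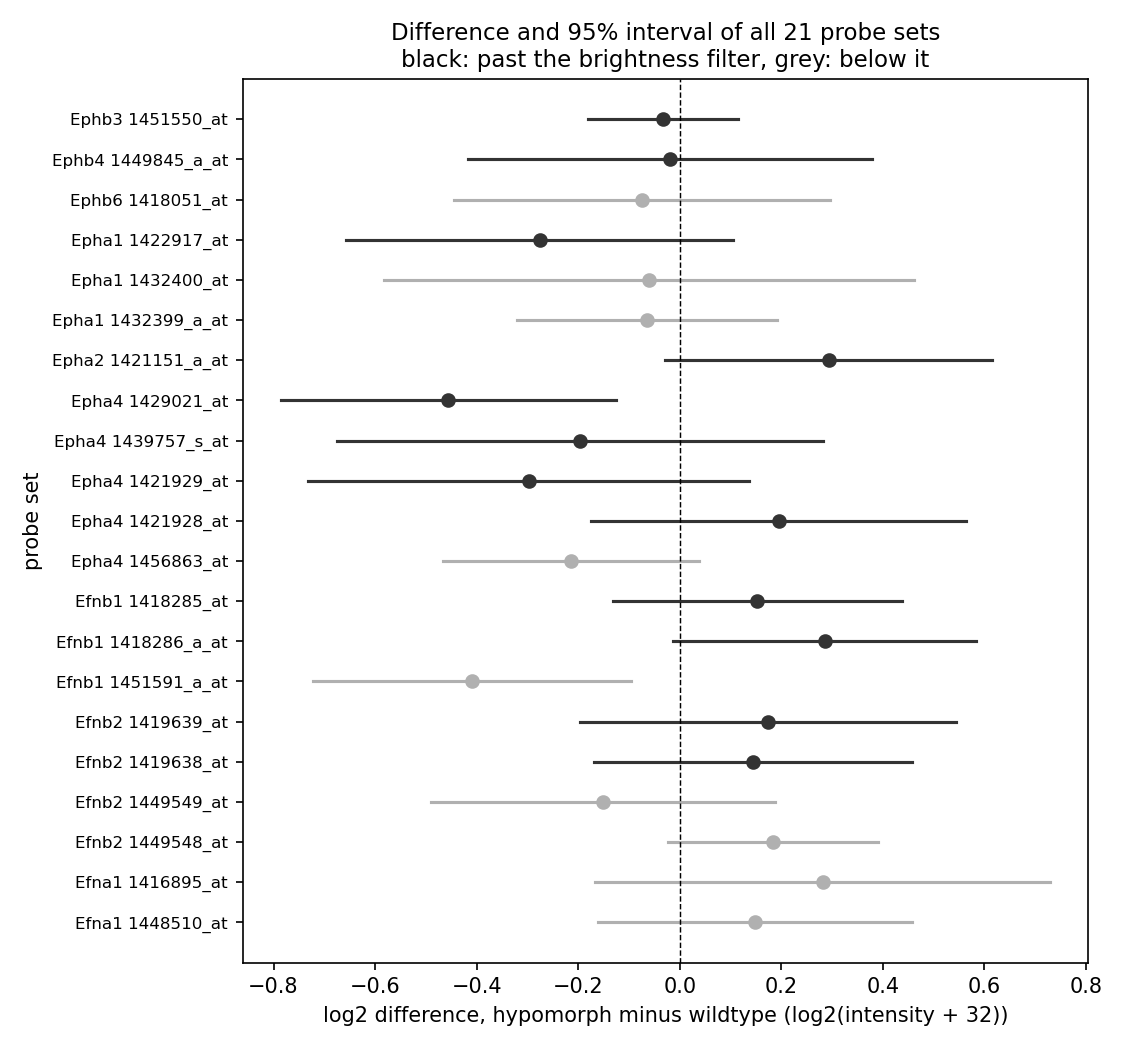
Log2 difference (x axis, hypomorph minus wildtype, log2(intensity + 32)) with its 95% interval for the 21 probe sets (rows), black where the probe set passed the brightness filter and grey where it did not. The interval of Ephb3 is the narrowest of the black ones, at -0.18 to 0.12, and among black ones only 1429021_at of Epha4, at -0.79 to -0.13, lies wholly on one side of 0.

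Few signalling partners and regulators of the family were called at their brightest probe set. Of 78 such genes 74 had a probe set and 61 passed the filter at their brightest one. Of these 61, limma called 0 higher and 2 lower (3.28%), against 4.23% of all 11577 tested genes (2.53% higher and 1.7% lower). The median difference of the 61 was -0.048, and that of all tested genes was -0.024. At an unadjusted p under 0.05 there were 14 of 61, against 21.7% of all tested genes. A probe set that was not the brightest of its gene and lay below the filter, 1429481_at of Nck2, read 2.56 and 7.02 in hypomorph and 102 and 107 in wildtype (difference -1.89, SE 0.17, limma adjusted p = 0.00549 in the fit without the filter). The brightest probe set of Nck2, an adaptor protein, read 1763 and 1727 in hypomorph and 1693 and 1842 in wildtype (difference -0.017), and the dim 1416797_at gave 0.27, so the 3 disagree. Nck2 was named after its values were seen.

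The larger of the called falls was in Vav3, a signalling protein that acts downstream of Eph receptors. Its brightest probe set read 453 and 360 in hypomorph and 680 and 689 in wildtype. All hypomorph values lay well below the wildtype values (log2 difference -0.72, SE 0.14, limma adjusted p = 0.0224). Another probe set of Vav3, 1417122_at, read 53.3 and 62.1 in hypomorph and 118 and 132 in wildtype (difference -0.81, adjusted p = 0.029), and the dim 1417123_at ran the other way (0.34). Without wildtype replicate 1 the call of the brightest probe set was lost (adjusted p = 0.0598), and also without wildtype replicate 2 (adjusted p = 0.0651), at nearly the same size of difference. It was lost as well with no filter (adjusted p = 0.0879) and with no intensity trend (adjusted p = 0.0815).

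The other called gene was Cd44, an adhesion receptor of crypt cells and, like Ephb3, a Wnt target. It read 856 and 796 in hypomorph and 1242 and 1152 in wildtype (log2 difference -0.52, SE 0.11, limma adjusted p = 0.0278). Its call was lost without wildtype replicate 1 (adjusted p = 0.148), without wildtype replicate 2 (adjusted p = 0.0557), with no filter (adjusted p = 0.0879) and with no intensity trend (adjusted p = 0.0976). Another tested probe set of Cd44, 1434376_at, gave -0.50 and was not called (limma adjusted p = 0.11). The dim 1452483_a_at and 1443265_at of Cd44, below the filter, gave -0.32 and -0.040. Axin2, a feedback inhibitor and target of Wnt signalling, read 2267 and 2424 in hypomorph and 2819 and 2988 in wildtype. This did not pass the threshold (log2 difference -0.30, SE 0.079, limma adjusted p = 0.0668). It was called without hypomorph replicate 2 (adjusted p = 0.0386). Of the 11 tested crypt regulators 1 was called, toward lower signal (9.09%, against 1.7% of all tested genes called lower). Their median difference was -0.27, and that of all tested genes was -0.024. An unadjusted p under 0.05 was reached by 3, Cd44, Axin2 and the stem cell factor Ascl2 (difference -0.32), the last named after its value was seen. Of 8 crypt base stem cell markers 3 were called lower (Cd44, Msi1 and Rgmb), against 1.7% of all tested genes. Ascl2 (-0.32), Sox9 (-0.27), Lgr5 (-0.11), Olfm4 (-0.046) and Smoc2 (0.074) were not called. The 8 markers summed to 13426 and 13422 in hypomorph and 15416 and 15032 in wildtype. Cd44, Ascl2, Lgr5 and Sox9 are on both lists, so these sums are no separate measure from the regulators. The part of stem cells in the differences of the crypt regulators was not tested. The beta-catenin gene Ctnnb1 read 8825 and 8916 in hypomorph and 9096 and 8836 in wildtype, and Fzd5, the Wnt receptor needed for Paneth cell maturation, read 2169 and 1971 in hypomorph and 2183 and 2148 in wildtype. Both were chosen after their values were seen, and neither was called (limma adjusted p = 0.897 and 0.708).

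Outside Vav3 and Cd44 no partner gene was called at its brightest probe set. Of 12 other Eph receptors and ephrins only 4 passed the filter, and the one with an unadjusted p under 0.05 was Epha7, a repulsive receptor of the nervous system, at 368 and 361 in hypomorph and 215 and 298 in wildtype (log2 difference 0.47, limma adjusted p = 0.151). Its other 3 probe sets were dim, with differences of 0.0018 to 0.17. Of 33 tested forward signalling genes, Vav3 was called, and Nck1, Rasa1 and Ngef (differences -0.43, -0.36 and -0.27) and Kalrn and Inppl1 (0.43 and 0.40) reached only an unadjusted p under 0.05. These encode adaptors, GTPase regulators and a lipid phosphatase. Of 9 tested genes of reverse signalling and scaffolds, Grip1 (-0.49), Ptpn13 (-0.44) and Rgs3 (0.41) did so. Grip1 lay below the guide level, and its other probe set gave -0.39. A dim probe set of Ptpn13 gave 0.16, and the other probe sets of Rgs3 gave 0.19, 0.45 and -0.096. Of 4 genes of shedding and adhesion, the one with an unadjusted p under 0.05 was Adam9, a membrane protease. It read 2317 and 2420 in hypomorph and 2732 and 2924 in wildtype (difference -0.25, limma adjusted p = 0.111). Its relative Adam10, which cleaves ephrins, read 3229 and 3265 in hypomorph and 3315 and 3510 in wildtype, and the E-cadherin gene Cdh1 read 3651 and 3362 in hypomorph and 3306 and 3334 in wildtype. Apart from Vav3 and Adam9, the genes of these groups were named after their values were seen.

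**Figure D4:**
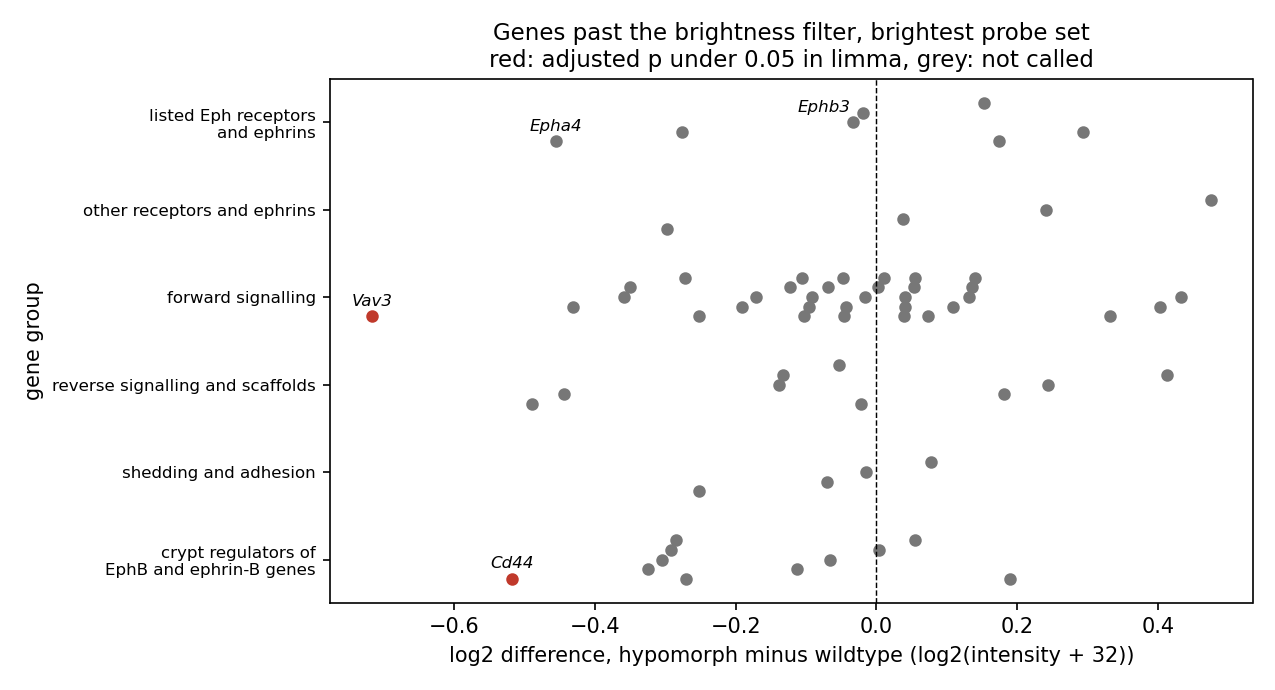
Log2 difference (x axis, hypomorph minus wildtype, log2(intensity + 32)) of the brightest probe set of each gene that passed the filter, by gene group (rows), red where called by limma at an adjusted p under 0.05. Vav3 (-0.72) and Cd44 (-0.52) are the called genes, and the 7 listed Eph receptors and ephrins lie between -0.46 and 0.29.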

How the data were processed

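Total RNA of laser-captured cells was extracted with the PicoPure kit, amplified and biotin-labelled with RiboAmp plus and hybridised to 1-colour arrays, per the labels' protocols. The authors deposited 1 linear intensity per probe set and array, and no label or header gives the background correction, probe summary, scaling or genome build. The values were taken as scaled already. After 64 control probe sets were left out, 34945 of 45037 carried 1 gene symbol in the platform annotation, 932 several and 9160 none, and only single symbols were used.

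Values were tested as log2(intensity + 32), over the 22519 probe sets at or above the median, with limma 3.58.1 in R 4.3.3 (lmFit, eBayes with intensity trend, group as the only term, 2 residual and 7.81 prior degrees of freedom, two-sided, Benjamini-Hochberg adjustment). Probe sets below the filter were taken from a fit of all probe sets. The procedure was tested on data simulated with the fitted spread. It called 20.9% of the changes of 0.5 in log2 difference, and 85.1% of those of 1. That a listed gene was not called therefore says little, by itself, about changes of 0.5 or less. These shares are over simulated probe sets of differing spread. The interval of each gene, such as -0.18 to 0.12 for Ephb3, gives its own bounds. All probe sets of the listed genes were reported, and of the partner genes the called ones or, where fewer than 4, the 4 tested with the smallest p. Genes and lists were chosen with earlier results of these data known. The number of arrays limits the precision. Alternatives were other normalisations, pseudocounts (1 and 128), filters, variance models, the replicate number as a block, gene means over probe sets, and each array left out.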

Additional observations from a re-analysis of the deposited data

How the results depend on the processing

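No listed Eph or ephrin probe set was called higher in any of the 13 alternatives, and none lower except 1 with the replicate block, the brightest of Epha4 (-0.46, adjusted p = 0.0251 in limma). That block fit also gave 1489 probe sets higher and 1717 lower over all, and 4 partner genes higher and 7 lower, Axin2 (adjusted p = 0.00498) and Adam9 (adjusted p = 0.0265) among them. Deviations of same-numbered arrays correlated at 0.264, which does not say what those arrays share. The labels say nothing of what a replicate number shares either, so the block stands only as an alternative. Over all probe sets there were 183 higher and 120 lower with no filter, and 192 and 131 with no intensity trend, and leaving out each array gave 317 to 706 higher and 178 to 942 lower. Partner genes called lower numbered 0 with no filter and with no intensity trend, 1 with a gene's probe sets averaged, and 0 to 4 with an array left out. Their number was 0 without either wildtype array, and 4 without hypomorph replicate 2. Of 251 values of the 21 probe sets under the alternatives, 241 kept sign and side of the threshold, 9 reversed and 1 passed it. Filters, variance models and the replicate block leave a difference as it is, so values under those settings could not reverse. With an array left out, Efnb1 1418285_at ranged from -0.037 to 0.34, Efnb2 1419639_at from -0.041 to 0.39, Epha1 1432399_a_at from -0.18 to 0.049 and 1432400_at from -0.38 to 0.26, Epha4 1439757_s_at from -0.47 to 0.082, Ephb4 from -0.21 to 0.17 and Ephb6 from -0.19 to 0.038. A pseudocount of 1 took the dim probe sets 1449548_at of Efnb2 and 1456863_at of Epha4 to 1.31 and -1.09, uncalled. Quantile normalisation turned Ephb4 to 0.0019. The cause of these changes was not tested, except that fewer arrays leave fewer degrees of freedom. Probe sets under the guide level of 92.5 carry less certain values, and where an array was left out, the lone array of its group was given the other group's spread.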
